A study of Mus musculus with 12 samples.

Results

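A set of 10 genes linked to congenital diaphragmatic hernia in humans or mice was followed through the culture and compression of embryonic mouse lungs: Gata4, Gata6, Zfpm2, Nr2f2, Hlx, Frem1, Frem2, Fras1, Lrp2 and Mecom. They were taken by symbol from a count table of 24421 genes, and 10 of the 10 were present. The choice rested on their link to the hernia, not on their values. In this birth defect a gap or thinning of the diaphragm lets abdominal organs move into the chest, where they press on the growing lung. The genes fall into classes by what their proteins do: transcription factors and cofactors of mesenchyme and mesothelium (Gata4, Gata6, Zfpm2, Nr2f2, Hlx and Mecom), matrix proteins of the Fraser complex that hold an epithelium to the tissue beneath it (Frem1, Frem2 and Fras1), and megalin, an endocytic receptor (Lrp2). Gata4 and Nr2f2 proteins both bind the cofactor Fog2, the product of Zfpm2, and several of these genes are tied to vitamin A, whose derivative retinoic acid guides formation of the lung and the diaphragm.

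Lungs of wild-type CD-1 fetuses, an outbred mouse strain, were taken on embryonic day 12.5 and kept in drops of Matrigel at an air-liquid interface, and RNA of whole explants was sequenced in bulk. The Day 0 group (4 libraries, labelled control) was sampled on the day after isolation, when treatment of the other groups began. Around the Day 2 compression lungs (4 libraries) 20% PEG-HCC, a polyethylene glycol gel set by light, was crosslinked under a two-photon microscope at Day 0 to restrict growth for 2 days, while the Day 2 control lungs (4 libraries) received the same solution without crosslinking. All groups were wild type and all were explants, so no library carries an altered risk gene, and the labelled tissue is fetal lung, not diaphragm. Compression against control addresses restricted growth together with the crosslinking that imposed it. Control against Day 0 addresses time in culture together with the uncrosslinked solution. Compression against Day 0 holds both time in culture and compression, which cannot be told apart within it.

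Day 0 libraries held 13979871 to 33249761 counts, control libraries 15452117 to 30805341 and compression libraries 25680019 to 31739019, and the 10 genes had 197 to 11766 counts in a library. Markers of lung epithelium and of lung mesenchyme, 8 of each, were above 0 in every library, as were the 7 mesothelium markers in the table. Summed endothelial markers, in CPM (counts scaled by library size), ran from 303 to 500 in Day 0 libraries, from 59.8 to 105 in control libraries and from 76.8 to 96.8 in compression libraries, and 8 of 8 fell in both comparisons with Day 0. Epithelial marker sums went from 931 to 1087 CPM at Day 0 to 1923 to 2063 CPM in control and 2091 to 2683 CPM in compression libraries, and 6 of 8 rose and 1 fell in both comparisons. Mesenchyme marker sums were 3406 to 4186, 2882 to 3643 and 3308 to 3981 CPM in the same order, with 5 of 8 lower in controls and 3 of 8 under compression. Leukocyte marker sums were 104 to 123, 122 to 208 and 192 to 234 CPM, with 4 of 8 and 7 of 8 higher. The 208 CPM was that of control replicate 4, and the other controls had 122 to 141 CPM. For compression against control 8 of 8 were positive and 0 passed, or 2 without control replicate 4. The part of these shifts in the results that follow was not tested. Control replicate 4 stood apart by liver transcripts, with 638 CPM of Alb and 745 CPM of Afp, against at most 2.23 CPM of Alb and 16.1 CPM of Afp in the other 11 libraries. Its 8 skeletal muscle markers summed to 34.1 CPM, against 22.7 to 25.5 CPM in the other controls. It also had 21 counts of Myod1, a skeletal muscle marker, against 0 to 4 in the other 11 libraries. The part of such tissue in the values of the 10 genes was not tested. Compression replicates 2 and 3, whose descriptions share the number 13, were closer to each other than any other pair within a group (mean chi-square per gene 4.09, against 7.51 to 123), but differed beyond sampling noise and were counted as 2 libraries. In these bulk samples, fewer cells of a type and less RNA per cell cannot be told apart.

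The 10 genes spanned a wide range of levels. Per kb of exon, at Day 0, Nr2f2 was highest at 33.6 ± 2.04 CPM per kb (SD, n = 4). Frem2 at 24.0 ± 4.37 and Frem1 at 19.6 ± 3.78 CPM per kb came next, and their ranges of mean ± SD overlapped. Gata6 at 12.4 ± 0.596, Mecom at 12 ± 1.23 and Fras1 at 10.4 ± 3.04 CPM per kb did not differ beyond their spread. Hlx at 7.77 ± 1.17, Gata4 at 5.53 ± 2.10 and Zfpm2 at 4.23 ± 0.282 CPM per kb followed, each overlapping its neighbour in the order, and Hlx overlapped Fras1. Lrp2 was lowest at 1.003 ± 0.202 CPM per kb, well below Zfpm2. The order was the same in Day 2 controls, from Nr2f2 at 26.8 ± 2.18 to Lrp2 at 1.17 ± 0.446 CPM per kb. Under compression Frem1 at 19.1 ± 1.13 CPM per kb stood above Frem2 at 16.3 ± 2.97 CPM per kb, with overlapping spreads, and the other genes kept their places.

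**Figure D1:**
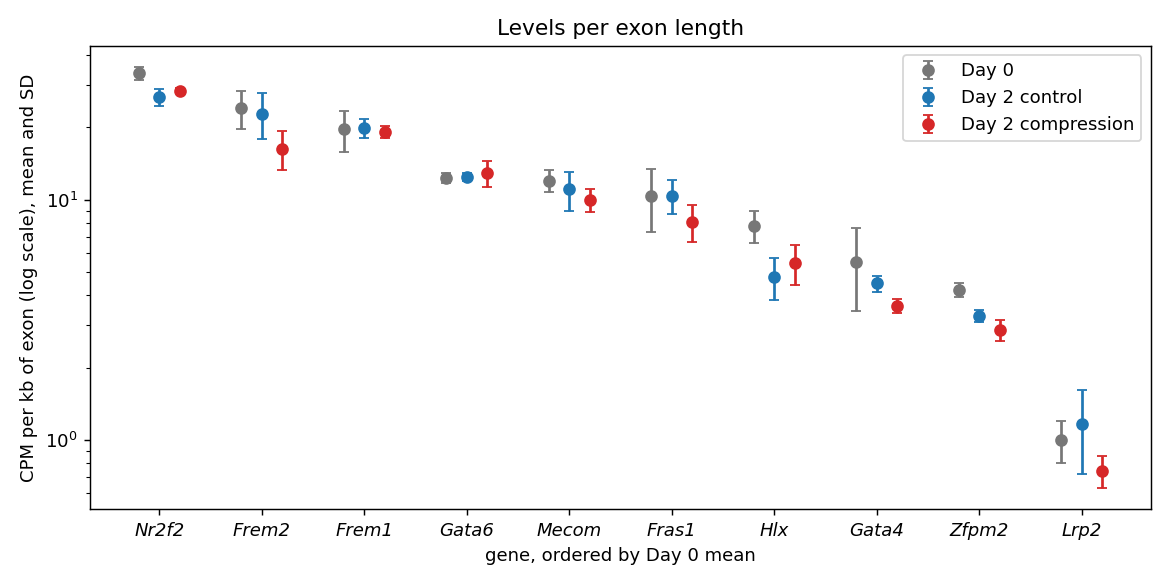
Mean level per kb of exon (CPM per kb, log axis) of the 10 genes in Day 0 (grey), Day 2 control (blue) and Day 2 compression (red) libraries, with bars of 1 SD over 4 libraries. Nr2f2 is highest in each group and Lrp2 lowest, and the compression point of Frem2 lies below that of Frem1.

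Compression moved none of the 10 genes past the threshold against Day 2 controls, and the same was true of all genes. With edgeR's quasi-likelihood test and an adjusted p of 0.05 as the threshold, 0 of 10 members and 0 of 15246 genes tested (0%) were called. At an unadjusted p under 0.05 there were 3 members (Frem2, Lrp2 and Zfpm2) and 1839 genes (12.1%). Other tools called 69 genes (DESeq2) and 1958 genes (limma-voom with quality weights), of which 0 and 3 were members. The log2 fold change was negative for 7 of the 10 members and their median was -0.17, against 0.00 over all genes tested. In 1 member, Gata4, the 2 groups did not overlap, against 5.77% of all genes.

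Against Day 0, each call among the 10 genes was a fall. In controls, 3 members fell against Day 0 (Zfpm2, Nr2f2 and Hlx) and 0 rose. Over all genes 40.2% were called in that comparison, 17.6% lower and 22.6% higher. Groups did not overlap in this direction for these 3 of the 10 members, against 17.4% of all genes. Under compression 5 members fell against Day 0 (Gata4, Zfpm2, Nr2f2, Hlx and Frem2) and 0 rose, where 49.1% of all genes were called, 22.5% lower and 26.6% higher. Groups did not overlap in this direction for 2 of the 10 members, Zfpm2 and Nr2f2, against 19.5% of all genes. The members' median log2 fold change was -0.10 in controls and -0.40 under compression, against 0.02 over all genes in both. Both comparisons use the same Day 0 libraries, and a gene called in 1 of them is not thereby shown to differ between the Day 2 groups.

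**Figure D2:**
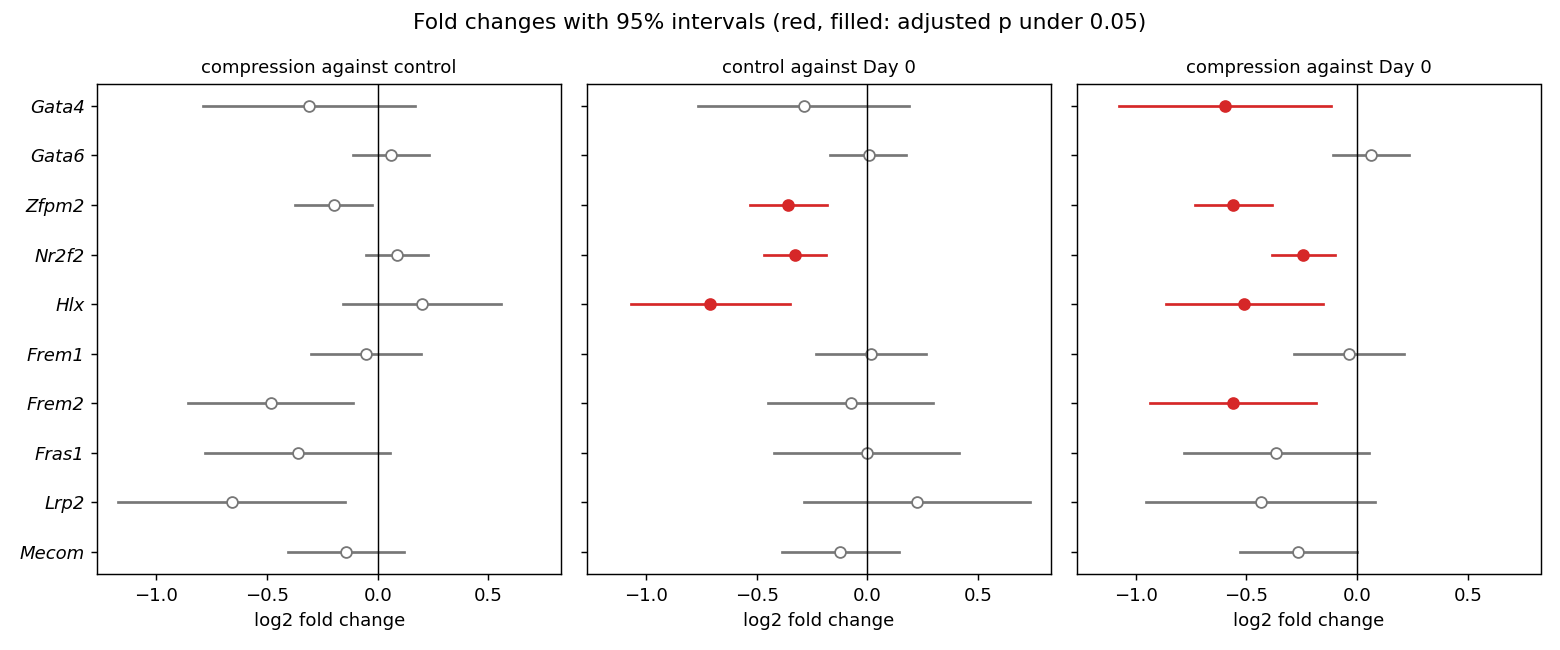
Log2 fold change (x axis) of each of the 10 genes (y axis) in the 3 comparisons, with 95% intervals. Red filled points passed an adjusted p of 0.05: none for compression against control, 3 for control against Day 0 and 5 for compression against Day 0, each of them to the left of 0.

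Zfpm2, which encodes the Fog2 cofactor and spans chr15:40655035-41104592 (GRCm38, + strand), fell in both Day 2 groups. Its levels were 38.2, 40.3, 44.1 and 38.6 CPM in Day 0 replicates 1 to 4, and 33.3, 32.3, 30.9 and 29.1 CPM in control replicates 1 to 4. Compression replicates 1 to 4 had 31.0, 26.7, 24.2 and 27.7 CPM. All 4 Day 0 libraries were above all 8 later ones, while the highest compression library lay among the controls. Against Day 0 the log2 fold change was -0.36 (SE 0.08, adjusted p = 0.00318) in controls and -0.56 (SE 0.08, adjusted p = 8.845e-05) under compression. Both calls held in each of 16 alternative analyses. Compression against control gave -0.20 (95% interval -0.37 to -0.02, adjusted p = 0.380), which did not pass.

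Gata4, a zinc finger factor of heart, diaphragm and lung mesenchyme (chr14:63198922-63271692, - strand), had the widest spread at the start. Day 0 replicates 1 to 4 had 26.3, 29.6, 19.4 and 11.05 CPM, so that the lowest and the highest library of the whole series were both Day 0 libraries. Controls had 16.9, 16.1, 19.2 and 17.9 CPM, and compression libraries 15.3, 13.95, 12.9 and 14.4 CPM. Every control library was above every compression library, yet the difference was smaller than the test could separate from the pooled spread (log2 fold change -0.31, SE 0.22, adjusted p = 0.563). Against Day 0 the fall under compression passed (-0.60, SE 0.22, adjusted p = 0.0393) with groups that overlapped through Day 0 replicate 4. It was called in only 6 of 16 alternatives, with values of -0.84 to -0.41 and adjusted p of 2.036e-04 to 0.125, and it was lost, for example, without Day 0 replicate 1 (adjusted p = 0.0980), without Day 0 replicate 2 (adjusted p = 0.125) and without compression replicate 2, 3 or 4 (0.0678, 0.0808 and 0.0626). Controls against Day 0 gave -0.29 (SE 0.22, adjusted p = 0.324), and -0.53 (adjusted p = 0.00588) without Day 0 replicate 4. Gata4 is also a gene of heart muscle: the atrial and ventricular myosin Myh6 stood at 18.9, 1.35, 7.57 and 4.79 CPM in the 4 Day 0 libraries, so replicate 2, highest in Gata4, was lowest in Myh6, and replicate 1, highest in Myh6, was next in Gata4. The part of heart tissue in the Gata4 values was not tested.

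Gata6, a factor of lung epithelium and mesenchyme, was level throughout. Its values were 76.1, 84.1, 83.4 and 78.3 CPM at Day 0 and 76.97, 83.5, 79.4 and 83.0 CPM in controls. Compression libraries had 73.9, 83.7, 79.9 and 98.8 CPM, the last being the highest of the 12. Groups overlapped in each comparison. Its log2 fold change was 0.06 for compression against control (95% interval -0.11 to 0.23, adjusted p = 0.770), 0.00 for control against Day 0 (adjusted p = 0.969) and 0.06 for compression against Day 0 (adjusted p = 0.527). The first and the last of these turned to -0.03 and -0.04 without compression replicate 4.

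Nr2f2 encodes COUP-TFII, an orphan nuclear receptor of mesenchyme and venous endothelium, and Hlx a homeobox factor of the mesenchyme around the gut, liver and diaphragm. The promoters of these 2 genes, which fell in both comparisons with Day 0, are shown because they are the called transcription factor genes with an entry among RefSeq promoters. Bases before the RefSeq start site are printed 5′ to 3′ (GRCm38.p6, both on the - strand). For Hlx they end where the GENCODE gene model begins.
Nr2f2, chr7:70366747-70366996: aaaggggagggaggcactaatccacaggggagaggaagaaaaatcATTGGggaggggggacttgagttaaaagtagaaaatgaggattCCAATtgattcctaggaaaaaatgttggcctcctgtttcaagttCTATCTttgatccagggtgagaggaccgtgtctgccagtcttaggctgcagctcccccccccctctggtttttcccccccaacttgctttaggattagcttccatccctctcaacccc
Hlx, chr1:184732620-184732743: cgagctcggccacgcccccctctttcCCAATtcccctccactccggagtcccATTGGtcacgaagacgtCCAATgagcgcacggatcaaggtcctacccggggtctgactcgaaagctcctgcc
Capitals mark matches, on either strand, to the CCAAT box (CCAAT) and, in Nr2f2 only, to the GATA motif, searched as AGATAA, as AGATAG, as TGATAA and as TGATAG. The Nr2f2 window held 1 GATA motif, AGATAG on the other strand at -118 from the start site, and 2 CCAAT boxes at -205 and -162. The 250-base window of Hlx held 3 CCAAT boxes, at -224, -198 and -181, and 0 GATA motifs. Neither held AGGTCA or GGGTCA, letters bound by many nuclear receptors. Of 32851 RefSeq promoter windows of 250 bases, 26.5% held a GATA motif, 23.8% AGGTCA or GGGTCA, and 33.8% a CCAAT box. A match is a description of the letters, not a site in use. Of the 10 genes 6 had a RefSeq promoter entry, and Gata4, Gata6, Zfpm2 and Fras1 did not.

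Nr2f2 (gene model chr7:70351944-70366735) fell by a small and even step over culture. Its levels were 311, 268, 286 and 295 CPM at Day 0, 249, 242, 227 and 207 CPM in controls, and 241, 249, 239.9 and 251 CPM under compression. All Day 0 libraries were above all Day 2 libraries, and the compression libraries lay close together, inside or just above the control range. Controls against Day 0 gave a log2 fold change of -0.33 (SE 0.07, adjusted p = 0.00135) and compression against Day 0 -0.24 (SE 0.07, adjusted p = 0.00753), each called in 16 of 16 alternatives. Compression against control was 0.09 (95% interval -0.06 to 0.23, adjusted p = 0.590). Of its exon length 7.46% lies opposite B130024G19Rik, and reads of the 2 genes cannot be told apart without strand.

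Hlx (gene model chr1:184727140-184732619, - strand) had the largest fall in controls among the 10. Day 0 libraries had 13.9, 19.7, 19.3 and 17.97 CPM and control libraries 8.01, 10.7, 11.7 and 13.03 CPM. Compression libraries had 9.96, 12.1, 11.9 and 15.6 CPM. The control and Day 0 groups were apart, whereas compression replicate 4 exceeded Day 0 replicate 1. The log2 fold change was -0.71 (SE 0.17, adjusted p = 0.00407) in controls and -0.51 (SE 0.17, adjusted p = 0.0201) under compression. The latter was lost without Day 0 replicate 2 (-0.46, adjusted p = 0.0538) and held in the other 15 alternatives. Compression against control gave 0.20 (95% interval -0.16 to 0.56, adjusted p = 0.618).

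Mecom, a zinc finger factor also known as Evi1 (chr3:29951296-30548008, - strand), did not pass in any comparison. It stood at 149, 136, 142 and 171 CPM at Day 0, 168, 146, 125 and 109 CPM in controls and 142, 124, 124 and 108 CPM under compression. The 3 groups overlapped. Compression against Day 0 gave a log2 fold change of -0.26 (adjusted p = 0.0883), control against Day 0 -0.12 (adjusted p = 0.456) and compression against control -0.14 (adjusted p = 0.626). Of 16 alternatives for compression against Day 0, 3 called it: the fit of these 8 libraries alone (adjusted p = 0.0350), limma-voom (0.0286) and the fit without compression replicate 1 (0.0320).

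**Figure D3:**
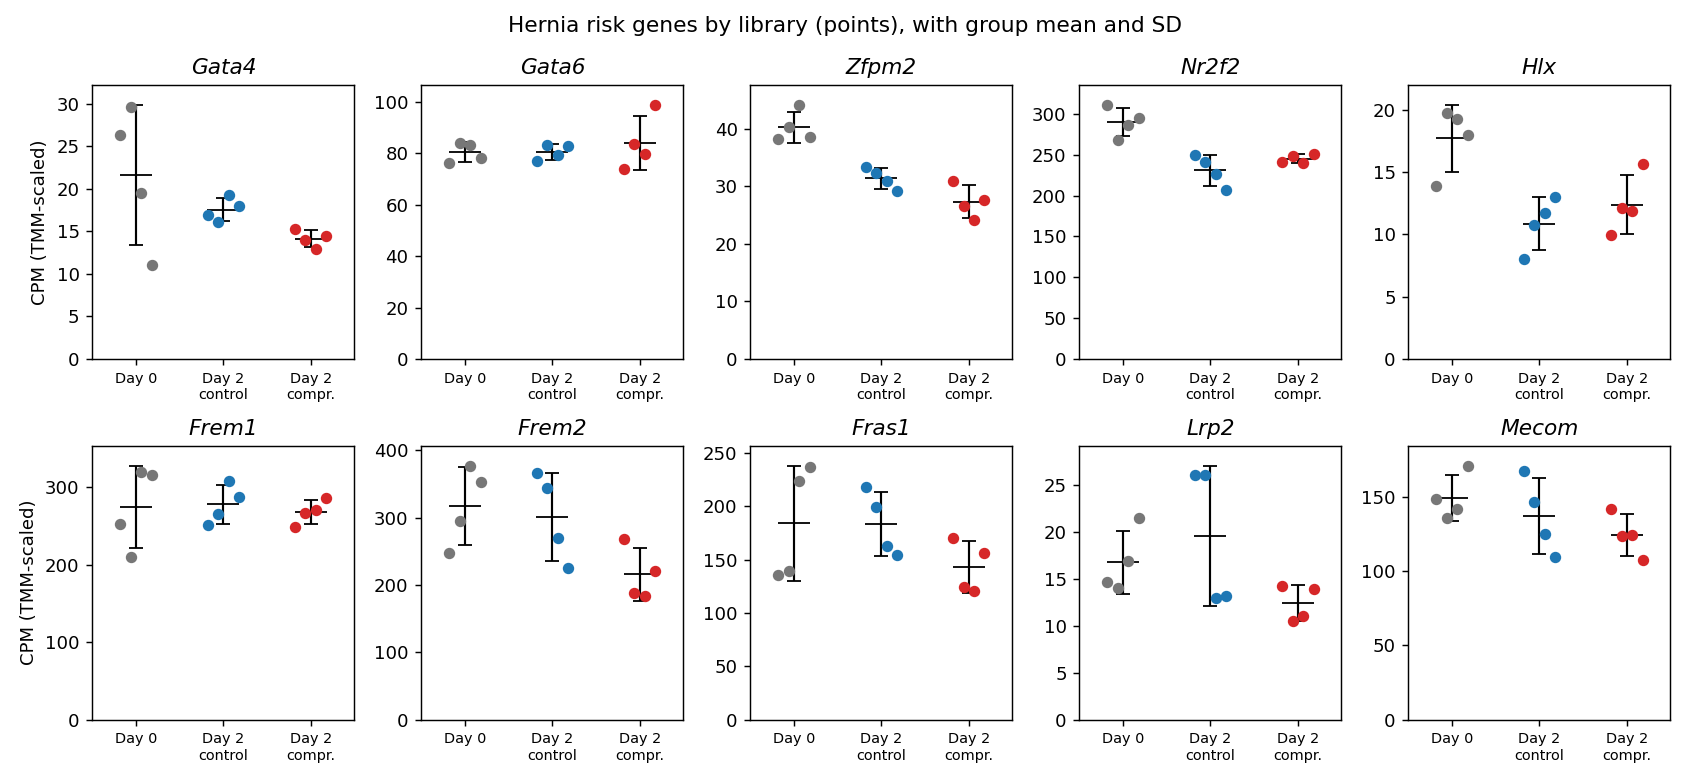
Level of each of the 10 genes (TMM-scaled CPM, y axes from 0) in every library (points, replicates 1 to 4 from left to right), with the group mean (horizontal line) and SD (bar), for Day 0 (grey), Day 2 control (blue) and Day 2 compression (red). Zfpm2, Nr2f2 and Hlx lie lower in controls than at Day 0 without overlap, Gata6 and Frem1 show level means, and the control libraries of Lrp2 split into 2 near 26.0 CPM and 2 near 13.2 CPM.

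The Fraser complex genes code for large basement membrane proteins that are secreted by epithelia and mesenchyme, stabilise each other and anchor embryonic epithelia and mesothelium. Frem2 (chr3:53513938-53657355, - strand) was the only gene of the complex called, and only for compression against Day 0. Whether its change differed from that of Fras1 was not tested. The promoter of Frem2, the 250 bases before the RefSeq start site (GRCm38.p6), is shown because Frem2 is the called matrix gene of the 10.
Frem2, chr3:53657356-53657605: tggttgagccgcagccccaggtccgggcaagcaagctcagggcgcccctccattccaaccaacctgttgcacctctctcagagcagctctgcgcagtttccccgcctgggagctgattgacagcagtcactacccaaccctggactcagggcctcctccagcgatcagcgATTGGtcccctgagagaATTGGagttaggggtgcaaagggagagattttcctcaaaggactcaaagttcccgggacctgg
Capitals mark 2 CCAAT boxes on the other strand, at -80 and -63. The Frem2 promoter held 0 GATA motifs and 0 copies of AGGTCA or GGGTCA. Its GC content was 59.6%, against 50.0% for Nr2f2 and a median of 52.4% over all promoters. The whole 250-base window of Hlx, of which only 124 bases are printed above, had 41.6%.

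Frem2 had 248, 295, 377 and 352 CPM at Day 0 and 367, 344, 270.5 and 226 CPM in controls. Under compression it had 269, 189, 184 and 222 CPM. Compression libraries were the lowest as a group, but replicate 1 exceeded Day 0 replicate 1 and control replicate 4, so groups overlapped in each comparison. Against Day 0 Frem2 fell under compression (log2 fold change -0.56, SE 0.17, adjusted p = 0.0170; called in 16 of 16 alternatives, -0.79 to -0.47) and did not pass in controls (-0.08, adjusted p = 0.758). Compression against control gave -0.48 (95% interval -0.86 to -0.11, adjusted p = 0.376), which passed only with limma-voom (-0.54, adjusted p = 0.0165).

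Fras1 (chr5:96373955-96784728, + strand), the founding gene of the complex, ran close to Frem2 from library to library. It stood at 136, 139, 224 and 237 CPM at Day 0, 218, 199.5, 163 and 155 CPM in controls, and 171, 125, 120.5 and 157 CPM under compression. The Day 0 libraries split into a low and a high pair that bracketed the compression and control means. No comparison passed: the log2 fold change was -0.36 (95% interval -0.78 to 0.06, adjusted p = 0.459) for compression against control, 0.00 (adjusted p = 0.990) for control against Day 0 and -0.36 (adjusted p = 0.136) for compression against Day 0. Limma-voom called the first (-0.44, adjusted p = 0.0495) and the last (adjusted p = 0.00287), and the last was also called without Day 0 replicate 1 (-0.51, adjusted p = 0.0418).

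Frem1 (chr4:82897920-83052339, - strand), the third matrix gene, did not follow them. Its values were 253, 209.5, 319 and 315 CPM at Day 0, 251, 265, 307 and 287 CPM in controls and 248, 266, 270.2 and 286 CPM under compression. The Day 0 range enclosed all 8 later libraries. Its log2 fold change was -0.05 for compression against control (95% interval -0.30 to 0.20, adjusted p = 0.866), 0.02 for control against Day 0 (adjusted p = 0.928) and -0.04 for compression against Day 0 (adjusted p = 0.818), and its sign turned under some alternatives in each.

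Lrp2 encodes megalin, an endocytic receptor of absorptive epithelia and mesothelium that takes up carrier proteins of vitamin A, among other ligands (chr2:69424340-69586065, - strand). Its Day 0 levels were 14.6, 14.02, 16.9 and 21.5 CPM. Control replicates 1 and 2 had 26.0 and 26.0 CPM, and replicates 3 and 4 had 12.98 and 13.2 CPM. Compression libraries had 14.3, 10.5, 11.1 and 13.96 CPM. Control replicates 1 and 2 were the highest of the 12 libraries, while replicates 3 and 4 lay within the compression range. Compression against control gave a log2 fold change of -0.66 (SE 0.24, 95% interval -1.17 to -0.15, adjusted p = 0.376), and -0.49 without control replicate 1 and likewise without control replicate 2. Neither control against Day 0 (0.22, adjusted p = 0.481) nor compression against Day 0 (-0.44, adjusted p = 0.147) passed. The latter was called in 2 of 16 alternatives, the fit of these 8 libraries alone (adjusted p = 0.0416) and limma-voom (adjusted p = 0.0165).

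Some mesothelial genes were high in the same control libraries as Lrp2 and others were not. Wt1 stood at 42.2, 41.3, 33.3 and 29.7 CPM in control replicates 1 to 4, against 26.2 to 32.7 CPM under compression. Upk3b had 39.7, 47.8, 27.6 and 22.5 CPM in controls, against 19.5 to 24.0 CPM under compression. The 7 mesothelium markers in the table summed to 329 and 355 CPM in control replicates 1 and 2 and to 264 and 247 CPM in replicates 3 and 4. Their sum was 264 to 275 CPM under compression and 151 to 204 CPM at Day 0, and 0 of 7 were at 0 in any library. Msln did not share the split, with 17.1, 15.9, 16.0 and 20.4 CPM in controls. In compression against control 0 of the 7 passed, 4 were negative (Wt1, Upk3b, Aldh1a2 and Lrrn4) and 3 positive (Msln 0.43, Upk1b 0.34 and Krt19 0.25), with a median log2 fold change of -0.31. Their part in the values of Lrp2 was not tested.

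Frem2, Fras1 and Lrp2 are long genes, with 13.26, 17.71 and 16.70 kb of exon. Of genes tested, 1442 others had at least 10 kb of exon and 13672 had less. The median deviation of the long genes from their own means, in log2 CPM, was -0.042 to 0.105 in Day 0 libraries. It was -0.023 to 0.116 in control and -0.105 to 0.038 in compression libraries, so the groups overlapped. A difference between the groups in long genes as a class was not tested. The long genes had a median log2 fold change of -0.08 for compression against control and 73.3% were negative, against 0.01 and 46.4% of the shorter genes. For compression against Day 0 the medians were -0.12 and 0.03, and 34.4% of long genes were called lower against 21.2% of shorter ones. For control against Day 0 they were -0.03 and 0.03. Frem1 (13.98 kb) and Mecom (12.43 kb) also exceed 10 kb of exon, with values of -0.05 and -0.14 for compression against control. With the trend on length removed library by library, a choice made after seeing the data, Frem2 was at -0.41 (adjusted p = 0.402), Fras1 at -0.26 and Lrp2 at -0.55 for compression against control, and Frem2 still fell under compression against Day 0 (-0.47, adjusted p = 0.0176). The number of members called stayed at 0, 3 and 5.

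**Figure D4:**
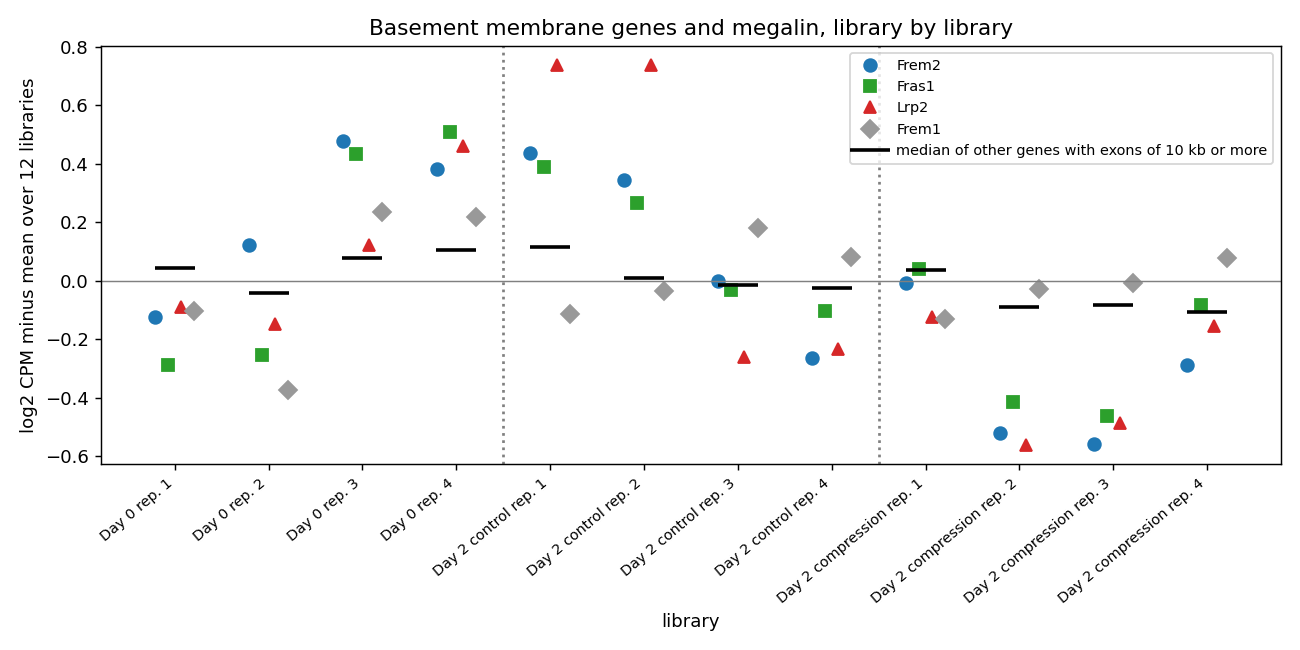
Log2 CPM minus each gene's mean over the 12 libraries (y axis) for Frem2, Fras1, Lrp2 and Frem1 in every library (x axis), with the median of the 1442 other genes of at least 10 kb of exon as a black bar. Frem2, Fras1 and Lrp2 are high in control replicates 1 and 2 and low in compression replicates 2 and 3, and Frem1 is not. The black bars stand at 0.116 and 0.009 in those control libraries and at -0.089 and -0.081 in those compression libraries. The lowest bar, at -0.105, is that of compression replicate 4.

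Likeness of pattern was measured as the root mean square difference between log2 CPM profiles, each centred on its mean over the 12 libraries, among 13773 genes with a mean of at least 1 CPM. The gene most like Frem2 was Fras1 (0.155), equalled by Egfr, the epidermal growth factor receptor (0.155). Fras1 was most like Fbn2, which encodes fibrillin-2 (0.082), and Fat1, a giant cadherin (0.104), and these had 13.21 and 15.65 kb of exon. Lrp2 was nearest to Frem2 (0.216) and Syt14 (0.223), with a root mean square deviation of its own of 0.414, the largest of the 10. The distances are not scaled by that deviation, which was smallest for Gata6 (0.102). The matches of Frem2, Fras1 and Lrp2 all have more than 10 kb of exon. Among the transcription factor genes, Zfpm2 was most like Smarca4 (0.063) and Actn1 (0.066), Nr2f2 most like Phactr4 (0.049) and Paxip1 (0.055), and Hlx most like Sema6c (0.080) and Dusp5 (0.111). Gata4 was nearest to Sfrp2 (0.197) and Lmo3 (0.222), Gata6 to Ppp2r4 (0.041) and Wbp1 (0.054), Mecom to Ubxn2b (0.072) and Rasa1 (0.082), and Frem1 to Elp6 (0.076) and Phka1 (0.083). No other member was among the 2 nearest genes of a transcription factor gene or of Frem1.

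The wider lists that follow are read against the shares of all genes given above (17.6% lower and 22.6% higher in controls, 22.5% lower and 26.6% higher under compression). Of 10 relatives and cofactors of the transcription factors 9 were tested, and Gata1 (58 counts in all) was too low. In controls 5 fell against Day 0 (Gata2, Gata5, Nr2f1, Ctbp1 and Ctbp2) and 1 rose (Prdm16, 0.28, adjusted p = 0.0433), with a median log2 fold change of -0.28. The rise was lost without Day 0 replicate 1 or 2 or control replicate 1, 2 or 3. Under compression Gata2, Gata5, Nr2f1, Ctbp1 and Ctbp2 fell and 0 rose, or 1 rose without Day 0 replicate 3 or 4, and the median was -0.26. Gata2, a factor of blood and endothelium, fell most, by 2.32 in controls and by 1.96 under compression on the log2 scale (adjusted p = 5.235e-05 and 1.082e-04), beside the endothelial markers given above, whose part was not tested. Gata5 went from 93.5 ± 9.18 CPM at Day 0 to 46.4 ± 8.51 CPM in controls and 50.5 ± 8.04 CPM under compression (log2 fold change -1.01 and -0.89, adjusted p = 5.764e-05 and 1.107e-04). Nr2f1, the paralog of Nr2f2, fell by 0.90 and by 0.69 (adjusted p = 5.086e-06 and 2.608e-05), and the corepressor gene Ctbp2 by 0.27 and by 0.26. For compression against control 0 of 9 passed, with a median of 0.13, and the smallest p belonged to Nr2f1 (0.21, adjusted p = 0.388), followed by Nr2f6 (0.28), Gata2 (0.36) and Gata3 (0.26).

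Partners of the Fraser complex moved in both directions with time. Among 7 tested, Itga8, an integrin chain of mesenchyme that binds nephronectin, fell from 148 ± 11.6 CPM at Day 0 to 87.2 ± 5.93 CPM in controls and 77.9 ± 6.84 CPM under compression (log2 fold change -0.76 and -0.93, adjusted p = 7.363e-06 and 1.159e-06). Npnt, which codes for nephronectin, rose from 147 ± 32.5 to 283 ± 19.5 and 312 ± 53.8 CPM (adjusted p = 3.066e-04 and 7.794e-05). Grip1, whose protein helps carry Fras1 and Frem2 to the cell surface, rose by 0.47 and 0.38 (adjusted p = 2.138e-04 and 8.158e-04). The other 4 did not pass. Frem3 gave 0.51 in controls (adjusted p = 0.144), and Vwa2 gave -0.25 under compression (adjusted p = 0.0569), passing without Day 0 replicate 1 or without compression replicate 1 or 4 (0.00676, 0.0475 and 0.0352). For compression against control 0 of 7 passed and 6 were negative, with a median of -0.09, among them Itga8 (-0.16, adjusted p = 0.420), Hmcn1 (-0.33), Vwa2 (-0.14) and Grip1 (-0.09).

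Of 8 megalin partners and carriers of its ligands, 7 were tested and Amn (19 counts in all) was too low. Lrpap1, the chaperone of megalin, rose from 64.2 ± 4.87 CPM to 115 ± 8.58 CPM in controls and 124 ± 11.9 CPM under compression (log2 fold change 0.84 and 0.95, adjusted p = 5.160e-06 and 1.407e-06). Cubn, which encodes the co-receptor cubilin, was near 3.25 ± 1.03, 3.60 ± 2.75 and 3.77 ± 1.09 CPM and did not pass. In controls 2 of the 7 rose (Lrpap1 and Rbp4) and 3 fell, Stra6 and Dab2 among them, or 1 fell without Day 0 replicate 2 or control replicate 1 or 2. Under compression Lrpap1 rose and Stra6 fell. Rbp4, the blood carrier of vitamin A that the liver secretes, was called higher in controls (1.16, adjusted p = 0.0183) with 35.4 CPM in control replicate 4, the library with liver transcripts, against 10.3 to 11.8 CPM in the other controls and 6.77 to 8.90 CPM at Day 0. Without that library it was still called (0.53, adjusted p = 0.00702). Under compression against Day 0 Rbp4 gave 0.73 (adjusted p = 0.0992), although its 11.3 to 14.8 CPM there lay above all Day 0 libraries. That fit pooled the spread of all 12 libraries, control replicate 4 among them. The part of that library in this result was not tested. For compression against control 0 of 7 passed, with a median of 0.11, among them Dab2 (0.13) and Lrpap1 (0.11).

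Genes of retinoic acid synthesis and signalling included large falls over culture. Stra6, the receptor that takes up vitamin A from Rbp4, fell from 19.3 ± 3.05 CPM at Day 0 to 4.37 ± 0.508 CPM in controls and 3.99 ± 0.213 CPM under compression (log2 fold change -2.14 and -2.27, adjusted p = 1.260e-07 and 7.099e-08). Crabp2, a carrier of retinoic acid inside the cell, fell by 1.34 in controls and by 1.38 under compression, and Cyp26b1, which degrades retinoic acid, by 0.75 and by 0.92. Rara, a retinoic acid receptor, fell by 0.40 in controls (adjusted p = 0.00280), and Aldh1a1, which makes retinoic acid, rose by 1.48 under compression against Day 0 (adjusted p = 0.00245). Of 16 tested, 2 rose (Rbp4 and Aldh1a1) and 6 fell in controls, with a median of -0.05, and 1 rose without Day 0 replicate 3 or control replicate 1 or 3. Under compression 1 rose (Aldh1a1) and 4 fell (Stra6, Crabp2, Cyp26b1 and Rara), with a median of -0.10, and 2 rose without Day 0 replicate 4. Cyp26a1 (81 counts in all) was too low. For compression against control 0 of 16 passed and the median was -0.01. The smallest p was that of Aldh1a2, the main retinoic acid synthesis gene of mesothelium, with 88.4 ± 24.7 CPM in controls and 59.1 ± 10.1 CPM under compression (-0.58, adjusted p = 0.356), and it too was highest in control replicates 1 and 2 (100.1 and 118 CPM).

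A further 35 genes linked to the hernia, listed apart from the 10, were all tested. In controls 4 rose (Lox, Eln, Wt1 and Efemp2) and 15 fell against Day 0, with a median log2 fold change of -0.11. Under compression 5 rose (Lox, Eln, Ltbp4, Efemp2 and Col3a1) and 16 fell, with a median of -0.25. On leaving out a library 3 to 5 rose, with 3 without compression replicate 4, and 14 to 18 fell. Eln, the elastin gene, gave 0.54 in controls and 0.87 under compression (adjusted p = 0.0274 and 0.00153). Beside Stra6, the hedgehog pathway factors Gli3 and Gli2 fell by 0.71 and by 0.74 in controls (adjusted p = 2.211e-05 and 1.062e-04). Gli3 fell by 0.80 under compression (adjusted p = 5.928e-06), as did Tbx5, a mesenchymal factor, by 0.54 (adjusted p = 3.752e-05). Lox, which crosslinks collagen and elastin, rose from 227 ± 24.4 CPM to 484 ± 43.6 CPM in controls and 539 ± 74.0 CPM under compression (log2 fold change 1.09 and 1.25, adjusted p = 4.914e-06 and 1.264e-06). The count of rises in controls was 2 or 3 on leaving out any library compared, and that of falls was 14 to 16. For compression against control 0 of 35 passed, the median was 0.01, and Aldh1a2, Wt1 (-0.31, adjusted p = 0.376), Nipbl (-0.20) and Myrf (-0.23) had the smallest p. Several genes stand in more than 1 of these lists, so their counts are not independent.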

How the data were processed

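The authors deposited raw read counts per gene symbol, with a column for each library. They named fastp, STAR and the mm10 build, per the submitters' processing notes. Versions, the counting step, the annotation and the strand setting were not given in the sources used here. Genes were kept by filterByExpr (min.count 10, min.total.count 15), which left 15246, 10 of 10 members among them. All 12 libraries entered 1 edgeR 4.0.16 quasi-likelihood fit (R 4.3.3; TMM, robust, group as the only term), with Benjamini-Hochberg adjustment over all genes tested and a threshold of 0.05. Adjusted p-values are from this fit unless another tool is named. The labels do not say whether libraries came from separate animals, so p-values measure the spread between these samples. CPM uses TMM-scaled totals. Profiles use a prior count of 2. Levels per kb use the union of exons of the GENCODE M21 gene (GRCm38) matched by symbol (23351 genes) or older symbol (669), with 401 unmatched. Alternatives were DESeq2 1.42.0, limma-voom (limma 3.58.1), DESeq2 size factors, no filter, only the 8 libraries compared, a replicate block, compression replicates 2 and 3 summed, each library left out and a length trend (lowess, span 0.3). The count model was tested on simulated data. Every member is named, and from each wider list the up to 4 genes with the smallest p in a comparison. Some genes this selects are not reported here. Others named (Cubn, Ctbp1, Prdm16, Efemp2, Eln, Ltbp4, Col3a1 and markers) were chosen after their values were seen. Members and lists were chosen with earlier results of these data known.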

Additional observations from a re-analysis of the deposited data

Results flagged for a closer look

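The 10 genes and the wider-list genes named in the text, 42 in all, were searched for a library that lay far from the other 3 of its group, by Dixon's gap over range. Chance alone flags about 1 in 20 groups. Of 126 groups 11 were flagged, and 0 of the 30 groups of the 10 hernia genes. Control replicate 4 had 35.4 CPM of Rbp4, against 10.3 to 11.8 CPM in the other controls. Control replicate 1 had 338 CPM of Nipbl, against 278 to 287 CPM, and 549 CPM of Lox, against 460.0 to 465 CPM. Control replicate 2 had 32.3 CPM of Vwa2, against 27.3 CPM in each of the others. At Day 0, replicate 1 had 263 CPM of Lox, against 211 to 217 CPM, and 149.8 CPM of Rxra, against 163 to 165 CPM, while replicate 2 had 268 CPM of Nipbl, against 316 to 324 CPM. Compression replicate 1 had 74.2 CPM of Aldh1a2, against 52.5 to 56.0 CPM, and 231 CPM of Npnt, against 335 to 341 CPM. Compression replicate 4 had 62.6 CPM of Gata5, against 46.1 to 46.7 CPM, and 82.2 CPM of Rara, against 66.3 to 68.5 CPM.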

How the results depend on the processing

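For compression against control, the number of genes called was 0 in the analysis reported, 4 with only the 8 libraries compared, 69 with DESeq2, 1958 with limma-voom and 0 to 53 on leaving out a library (53 without control replicate 4, 19 without compression replicate 1). Limma-voom called 3 members there (Zfpm2 at -0.25, Frem2 at -0.54, Fras1 at -0.44). The cause was not tested. Members called under compression against Day 0 numbered 3 to 6 on leaving out a library, with 3 without Day 0 replicate 2 (fewer samples). Sign turned for Frem1 with the length trend removed (0.03 for compression against control, 0.08 for compression against Day 0) and on leaving out a library (-0.10 to 0.01, -0.09 to 0.08 and -0.15 to 0.02 in compression against control, control against Day 0 and compression against Day 0). It also turned for Lrp2 with limma-voom (-0.07, control against Day 0), for Frem2 on leaving out a library (-0.20 to 0.02, control against Day 0) and for Gata6 (-0.03 to 0.11 against control, -0.04 to 0.10 against Day 0), none of them called. Fras1 and Gata6 in control against Day 0, at 0.00 in the analysis reported, ran from -0.16 to 0.12 and from -0.04 to 0.03. The labels do not say whether replicate numbers pair the libraries. Same-number correlations were -0.181 to 0.166 over all comparisons, and 0.0487 to 0.112 for control against Day 0. They were not set beside those of other pairs, so they cannot decide this. With a replicate block 0, 6569 and 7895 genes and 0, 3 and 4 members were called. Hlx, Lrp2 and Gata4 rest on the fewest counts (1621, 1624 and 1823 over the Day 0 libraries). Lrp2, Zfpm2 and Gata4 were lowest per kb.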
